A study of Homo sapiens with 12 samples.

Results

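CD43+ blood progenitors collected at day 8 were compared with APLNR+ mesoderm collected at day 2 of the differentiation of H1, an established human embryonic stem cell line. The comparison used 3 libraries of each population, 6 of the 12 in the series, and the gene values of the other 6, from undifferentiated H1 cells and from CD31+CD34+ cells of day 5, were used only to place the called genes on the way. Genes entered when they reached 1 FPKM (a relative abundance that corrects fragment numbers for gene length and for sequencing depth) in at least 3 of the 6 libraries, which kept 13554 of 56593 gene symbols. All populations came from the same H1 line. For differentiation, H1 cells received BMP4 and activin A for the first 2 days and VEGF and bFGF afterwards, so APLNR+ cells were taken after the first pair of factors and CD43+ cells after both pairs. APLNR+ cells were sorted on the apelin receptor, CD31+CD34+ cells on a pair of endothelial and progenitor antigens, and CD43+ cells on sialophorin, and total RNA was sequenced. The populations therefore differed in day, in medium and in sorted antigen at once, and these cannot be told apart. The labels number the libraries of a population from 1 to 3 without naming separate cultures, so p-values measure only the spread between these libraries.

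Mesoderm forms when cells leave the primitive streak under Nodal, BMP, Wnt and FGF signals, and APLNR marks a mesodermal population from which blood and endothelium can arise. The first blood cells of the embryo emerge from hemogenic endothelium in a step called the endothelial-to-hematopoietic transition. CD43, encoded by SPN, is among the earliest surface proteins that set blood progenitors apart from endothelial cells in cultures of human pluripotent cells. Early blood includes primitive red cells, which use embryonic and fetal globins, megakaryocytes and myeloid cells.

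The 6 libraries had between 12313 and 12943 gene entries at 1 FPKM or more. Read depth is unknown because only FPKM were given, but the spacing of the lowest values put the relative depths between 0.763 and 1.24. Genes for small RNAs took 41.8%, 73.8% and 69.2% of the summed FPKM in the APLNR+ libraries, and 42.2%, 20.02% and 15.5% in the CD43+ libraries. Among these 6 libraries the share was lowest in CD43+ libraries 2 and 3, and its part in the results was not tested on its own. The rescaled values given with the counts below also reflect a changed weight of the 1 added to each FPKM. Libraries of one population correlated at 0.97 to 0.99 across genes on the log2(FPKM + 1) scale, and libraries of different populations at 0.72 to 0.76 (Pearson, a description across genes, which are not independent).

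The genes for the sorted antigens followed the labels in every library. SPN stood at 0.165, 0.217 and 0.171 FPKM in the APLNR+ libraries and at 60.3, 90.6 and 75.7 FPKM in the CD43+ libraries, a difference of 6.00 ± 0.15 (SE) on the log2(FPKM + 1) scale (limma, adjusted p = 4.9e-09). APLNR stood at 388, 402 and 359 FPKM against 21.7, 26.2 and 23.2 FPKM, a difference of -3.96 ± 0.11 (limma, adjusted p = 8.2e-09). Neither gene overlapped between the populations, and an exact permutation test of 3 libraries against 3 cannot go below p = 0.1. The CD43+ cells still held APLNR mRNA, while CD31+CD34+ cells had 403 FPKM on average, close to the 383 FPKM of the mesoderm.

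Markers of the cell types that the gates could hold were summed per library. All 6 mesoderm markers fell and their sum went from 561 to 620 FPKM in APLNR+ libraries to 24.1 to 28.7 FPKM in CD43+ libraries. Most of both sums came from the sorted antigen gene APLNR, at 383 and 23.7 FPKM on average. The blood markers, which include the sorted antigen gene SPN, summed to 5.88 to 7.36 FPKM and then 742 to 812 FPKM. ITGA2B alone averaged 575 FPKM in CD43+ cells, and 5 of 6 markers were called higher. The sixth, PTPRC, which encodes the pan-leukocyte antigen CD45, was below the filter at 0.0720 FPKM in APLNR+ and 0.197 FPKM in CD43+ cells on average, so a defining gene of mature leukocytes was near 0 in the CD43+ libraries. Endothelial markers rose from 50.5 to 68.0 FPKM to 219 to 292 FPKM, with PECAM1, CDH5 and TEK called. Markers of undifferentiated cells were at 346 to 387 FPKM in APLNR+ and 12.7 to 14.9 FPKM in CD43+ libraries, mostly through POU5F1. Markers of endoderm summed to 19.0 to 21.9 FPKM and 3.67 to 4.94 FPKM, a difference carried by SOX17 alone (17.5 ± 1.87 and 1.40 ± 0.239 FPKM), with APOA1 not called and FOXA2 and AFP below the filter in this comparison. Markers of fibroblasts and smooth muscle summed to 412 to 556 FPKM and 105 to 124 FPKM, but their members split: COL3A1 and ACTA2 rose, TAGLN fell and COL1A1 was not called. In bulk libraries, fewer cells of a type and less RNA per cell cannot be told apart.

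A gene was called when its limma adjusted p was below 0.05 (Benjamini-Hochberg over all tested genes) and the mean of log2(FPKM + 1) moved by 1 or more, that is 2-fold, on a scale that understates the change of low genes. By this rule 2084 genes were raised in CD43+ cells, which was 15.4% of those tested, and 2860 were lowered, which was 21.1%. The 2 populations did not overlap for 77.0% of all tested genes, so non-overlap alone marks little. Changes of at least 4-fold were found for 587 raised and 719 lowered genes, and changes of at least 32-fold for 49 and 25. The median difference of all tested genes was -0.04. When every library was rescaled to a common sum without the small RNA genes, the median moved to -0.33. The called genes then numbered 1671 raised and 4122 lowered, so 42.2% of called genes were raised as deposited and 28.8% after rescaling. This rescaling multiplied APLNR+ libraries by 2.44 to 2.66 and CD43+ libraries by 1.94 to 2.25 before 1 was added. The added 1 therefore also weighed less, and its part in the shift was not separated from that of the small RNA genes. The filter itself fixes the direction of some genes: 795 tested genes were below 1 FPKM in all APLNR+ libraries and could pass only through CD43+ cells, and 1116 were below it in all CD43+ libraries and could pass only through APLNR+ cells. Counts and medians of the gene lists below are therefore descriptions of the members that passed. The number that passed through one population alone is given below for some lists only. Elsewhere it was, for example, 4 of 5 raised cytokine receptors, and 3 of 4 raised and 3 of 4 lowered lymphoid genes. Among lowered genes it was 6 of 14 in the Nodal and activin list, 9 of 27 epithelial, 6 of 18 pluripotency and 8 of 27 Wnt genes. Genes with a mean below 0.1 FPKM in APLNR+ cells and of 10 FPKM or more in CD43+ cells numbered 62, of which 48 code for proteins. The opposite was seen for 33 genes, of which 14 code for proteins. Both counts cover all gene symbols, tested or not, and some untested small RNA genes had a value in 1 library only. SNORA31, for example, was at 669, 0 and 0 FPKM in CD43+ libraries and RNU6-11P at 0, 71431.5 and 0 FPKM in APLNR+ libraries. The 33 also include RPPH1 and AL355075.4, whose values of 0 may be failed estimates.

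**Figure D1:**
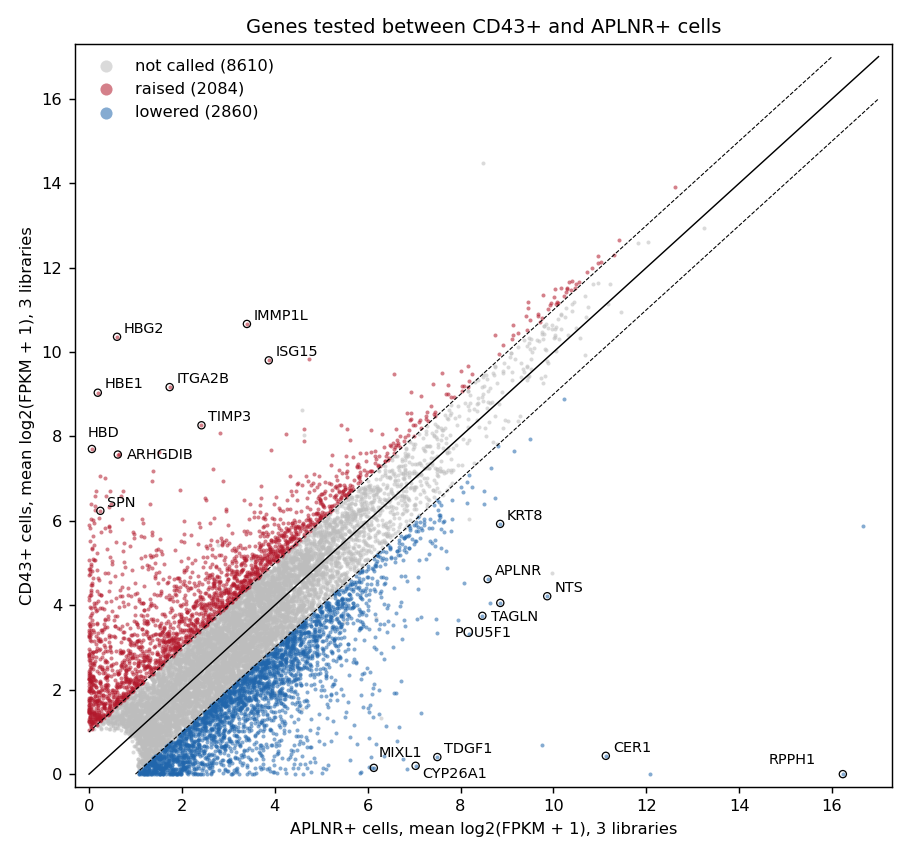
Mean log2(FPKM + 1) of each of the 13554 tested genes in APLNR+ (x axis) and CD43+ libraries (y axis), with 3 libraries behind each mean. The solid line marks equal levels and the dashed lines a 2-fold difference: 2084 raised genes lie above and 2860 lowered genes lie below, with globin genes and ITGA2B far above and CER1 far below.

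Among called protein-coding genes whose populations did not overlap, the 3 largest rises were of globin genes. HBG2, a fetal gamma globin, was at 0.933, 0.426 and 0.271 FPKM in the APLNR+ libraries and at 1136, 1509.9 and 1326 FPKM in the CD43+ libraries. The embryonic epsilon globin HBE1 went from 0.330, 0.0306 and 0.0793 FPKM to 482, 564 and 530.2 FPKM, and the delta globin HBD from 0.136, 0 and 0 FPKM to 200.2, 233 and 191 FPKM. These differences were 9.76 ± 0.17, 8.85 ± 0.13 and 7.64 ± 0.12 on the log2(FPKM + 1) scale (limma, all adjusted p at or below 1.7e-09). Every CD43+ library stood above every APLNR+ library for all of them. The adult beta globin HBB reached 11.1 ± 2.42 FPKM (SD, n = 3) and the embryonic zeta globin HBZ 8.58 ± 2.07 FPKM. HBG1 and HBG2, and likewise HBA1 and HBA2, are near-identical copies, so the split of fragments within each pair is uncertain. HBG1 varied most among the CD43+ libraries, at 72.3, 30.0 and 42.7 FPKM. In the list of 11 globin genes, 10 of 11 tested were raised with a median difference of 4.15, against -0.04 over all genes, but all 10 were below 1 FPKM in every APLNR+ library and passed through CD43+ cells alone. The exception was AHSP, the alpha globin chaperone, at 2.24, 0.442 and 0.120 FPKM in APLNR+ and 1.59, 1.76 and 2.04 FPKM in CD43+ libraries, which overlapped, although without APLNR+ library 1 the difference was 1.13 and was called. HBBP1, a beta-like globin pseudogene outside the list, was listed at 0 in all APLNR+ libraries and at 21.3, 27.9 and 27.8 FPKM in CD43+ libraries.

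Red cell factors and membrane genes rose to different degrees. Of 25 members, 20 were tested, 16 rose and 1 fell, with a median of 1.34, and 9 of the 16 passed the filter through CD43+ cells alone. GATA1, the master factor of red cells and megakaryocytes, went from 0.0120, 0.0110 and 0 FPKM to 48.8, 65.2 and 54.2 FPKM (log2 difference 5.81 ± 0.13). GFI1B, a repressor needed in the same lineages, was at 62.1 ± 13.5 FPKM in CD43+ cells (5.86 ± 0.18), and KLF1, which switches on adult globin and red cell genes, rose from 1.56 ± 0.272 to 53.0 ± 6.28 FPKM (4.39 ± 0.13). Of the membrane skeleton, SPTB, ANK1 and EPB41 differed by 1.15, 1.11 and 1.34. Among other members of the list, SLC4A1, EPB42, CA1 and XK stayed under the filter. RHAG, of the Rh complex, was the membrane gene that changed most (5.43 ± 0.12). The glycophorin genes GYPB and GYPE share much of their sequence, so their separate values (43.0 and 21.8 FPKM in CD43+ cells on average) are uncertain. CA2, a carbonic anhydrase, was the member that fell, from 41.0 ± 3.22 to 14.2 ± 1.03 FPKM.

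Heme synthesis and iron genes rose in part. All 22 were tested, 12 rose and 0 fell, with a median of 1.13. ALAS2, the red cell form of the first enzyme of heme synthesis, was at 1.10, 1.59 and 1.07 FPKM in APLNR+ and 48.9, 65.2 and 69.0 FPKM in CD43+ libraries (4.77 ± 0.16, limma, adjusted p = 1.9e-08). Its ubiquitous counterpart ALAS1 differed by 1.00, at the limit of the call. Later enzymes of the pathway differed less than ALAS2: UROS by 1.92, CPOX by 1.80, PPOX by 1.52, UROD by 1.48 and FECH by 1.41. The iron exporter SLC40A1 and the biliverdin reductase BLVRB rose by 2.06 and 2.39. The transferrin receptor gene TFRC was at 45.0 ± 3.69 FPKM in APLNR+ and 25.7 ± 3.01 FPKM in CD43+ cells and was not called, and the ferritin chain FTH1 stood at 207 ± 5.29 and 199 ± 15.5 FPKM (adjusted p = 0.63), with an SE of 0.10 on the log2 scale. The other chain, FTL, rose by 1.30.

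Megakaryocyte and platelet genes that passed the filter mostly rose. Of 29 genes, 24 were tested, 22 rose and 0 fell, with a median of 2.79, and 18 of the 22 passed through CD43+ cells alone. ITGA2B, the CD41 integrin chain, was at 2.13, 3.30 and 1.74 FPKM in APLNR+ and at 567, 574 and 585 FPKM in CD43+ libraries (7.43 ± 0.16, limma, adjusted p = 2.5e-09). Its partner chain ITGB3 went from 0.311, 0.340 and 0.230 FPKM to 84.6, 106 and 97.3 FPKM (6.22 ± 0.12). PLEK, pleckstrin, a protein kinase C substrate of platelets, went from 0.0461, 0.0259 and 0.0243 FPKM to 72.9, 85.2 and 93.9 FPKM (6.36 ± 0.12). In none of these did the populations come near each other. Genes of the glycoprotein Ib-IX complex, the von Willebrand factor receptor, were low or silent in mesoderm: GP9 and GP1BA were listed at 0 in all APLNR+ libraries and reached 10.98 ± 2.63 and 8.66 ± 0.949 FPKM. The platelet chemokine PF4 was likewise listed at 0 and then at 52.2, 73.5 and 53.4 FPKM. NFE2, a factor of platelet formation, rose by 5.99. LTBP1 (12.99 ± 1.13 and 26.3 ± 2.56 FPKM) and P2RY1 were the tested members not called, LTBP1 being called without APLNR+ library 2 (1.03) or CD43+ library 1 (1.05), and GP5, GP6, PF4V1, CLEC1B and F13A1 were under the filter.

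Myeloid genes that could be tested all rose, but most of the granule and macrophage genes could not be. Of 35 members, 16 passed the filter and 16 were raised, with a median of 2.94. Of these, 13 passed through CD43+ cells alone, so the count adds little by itself. TYROBP, a signalling adaptor of myeloid receptors, was at 0.0800, 0.111 and 0.0323 FPKM and then 23.4, 41.2 and 35.6 FPKM (4.97 ± 0.19). MS4A3, a marker of granulocyte-monocyte progenitors, reached 25.1, 28.8 and 30.0 FPKM (4.84 ± 0.12), and the adaptor FCER1G, which serves Fc receptors, rose by 4.45 ± 0.21. The myeloid factor SPI1 stood at 12.8 ± 1.72 FPKM and lysozyme, LYZ, at 13.2 ± 0.310 FPKM in CD43+ cells. The primary granule genes MPO, ELANE, AZU1 and PRTN3, and CD14, ITGAM and ITGAX of monocytes, stayed under the filter, while the granule protease CTSG passed and rose by 1.96.

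Mast cell, basophil and eosinophil genes passed the filter in 7 of 21 cases and 5 rose, 4 of which passed through CD43+ cells alone. GATA2, which acts in stem cells and mast cells, rose from 4.71 ± 0.271 to 90.6 ± 13.9 FPKM (3.99 ± 0.13). PRG2, the major basic protein of eosinophils, was at 15.7 ± 1.65 FPKM (3.90 ± 0.13) and HDC, which makes histamine, at 9.73 ± 0.707 FPKM (3.16 ± 0.11) in CD43+ cells. The stem cell factor receptor gene KIT was at 1.503, 2.13 and 2.54 FPKM against 2.97, 4.38 and 5.34 FPKM and was not called. Lymphoid genes were divided: of 26 members 8 were tested, 4 rose (CD79B, CD7, CD3D and NKG7) and 4 fell (EOMES, LCK, TCF7 and ZAP70), with a median of -0.15 that became -0.04 after rescaling without small RNA genes. EOMES is also a factor of the primitive streak and LCK was highest in undifferentiated H1, at 60.5 FPKM on average. CD3E, PAX5, RAG1, RAG2 and IL7R were under the filter.

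Sequences upstream of the start are shown for 4 genes of these results each with 2 motifs of different factor families in one 300-base promoter. The motifs searched on either strand were AGATAA, which is bound by factors such as GATA1, then TGTGGTT for RUNX factors, CCACACCC for KLF factors, TGAGTCA for NF-E2 and AP-1, AGGAAGTG for ETS factors and AGGTGTGA for T-box factors, none of which is contained in another on either strand. Among 64 named and called genes with a promoter, 5 held 2 of these motifs in one and the same promoter, and others held them in separate promoters. Of the 5, HBD is not printed: it held a GATA match at -78 and an NF-E2 or AP-1 match at -180 from its start. Printed are the 250 bases before the start of ALAS2 (chrX:55030978-55031227, minus strand), CSF1R (chr5:150113366-150113615, minus strand), GP9 (chr3:129060529-129060778, plus strand) and NTS (chr12:85874045-85874294, plus strand), from RefSeq on GRCh38.p14, 5′ to 3′, with motif matches in capitals.
ALAS2: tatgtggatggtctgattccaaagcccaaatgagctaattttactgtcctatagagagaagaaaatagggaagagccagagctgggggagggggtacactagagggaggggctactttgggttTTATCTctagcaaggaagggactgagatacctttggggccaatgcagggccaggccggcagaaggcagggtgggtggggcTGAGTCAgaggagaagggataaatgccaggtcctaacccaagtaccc
CSF1R: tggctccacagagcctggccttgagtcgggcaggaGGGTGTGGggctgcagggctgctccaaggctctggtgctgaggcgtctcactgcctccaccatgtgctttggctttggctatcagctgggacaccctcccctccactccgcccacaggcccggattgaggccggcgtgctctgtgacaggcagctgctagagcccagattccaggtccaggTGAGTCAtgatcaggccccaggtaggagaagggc
GP9: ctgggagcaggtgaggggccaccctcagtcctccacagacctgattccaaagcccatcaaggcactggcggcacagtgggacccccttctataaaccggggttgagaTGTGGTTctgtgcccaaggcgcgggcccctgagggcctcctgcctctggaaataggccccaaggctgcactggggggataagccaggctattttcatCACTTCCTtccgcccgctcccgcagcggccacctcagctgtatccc
NTS: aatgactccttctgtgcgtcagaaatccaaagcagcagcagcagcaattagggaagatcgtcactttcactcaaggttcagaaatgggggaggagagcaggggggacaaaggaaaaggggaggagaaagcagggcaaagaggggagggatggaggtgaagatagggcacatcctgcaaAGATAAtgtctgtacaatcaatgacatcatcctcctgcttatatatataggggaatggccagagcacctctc
ALAS2, the heme gene above, held a GATA letter match 127 bases before the start and an NF-E2 letter match 47 bases before it. In its printed promoter CSF1R, the macrophage growth factor receptor, held a KLF match at 215 bases and an NF-E2 or AP-1 match at 34 bases before that start. Another CSF1R promoter (chr5:150086505-150086804), not printed, held a RUNX match at -71 from its own start. GP9 held a RUNX match at 143 bases and an ETS match at 46 bases before the start. NTS, which encodes neurotensin and fell in CD43+ cells, held a GATA match at 72 bases before the start and an ETS match 37 bases after it, beyond the printed window, so a match was also present in a lowered gene. Over the 300-base promoters of all tested genes, 5.94% held the GATA letters, 3.15% RUNX, 3.04% KLF, 3.24% NF-E2 or AP-1, 3.66% ETS and 0.678% T-box. Promoters of raised and lowered genes held GATA letters in 7.12% and 7.3% of cases, RUNX in 3.45% and 3.22%, and KLF in 3.28% and 2.93%. For NF-E2 or AP-1 the shares were 4.24% and 3.7%, for ETS 5.33% and 3.19%, and for T-box 0.961% and 0.734%. The difference between them was not tested, and only 79.1% of raised and 79.2% of lowered protein-coding genes had a promoter sequence. A match describes letters and not a bound site.

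Of 35 blood transcription factors, 28 were tested and 26 rose, with a median of 3.53, while 1 fell. Of the 26, 15 passed the filter through CD43+ cells alone and 11 were at 1 FPKM or more in at least 1 APLNR+ library. LMO2 and TAL1, which form a complex with GATA factors that specifies blood, went from 0.359, 0.217 and 0.233 FPKM to 112, 133 and 139 FPKM and from 0.0581, 0.0375 and 0.0104 FPKM to 60.8, 68.4 and 65.8 FPKM. The differences were 6.66 ± 0.12 and 5.99 ± 0.11. RUNX1, the factor needed for the endothelial-to-hematopoietic transition, was already detected in mesoderm at 2.06, 1.96 and 1.82 FPKM and reached 35.5, 38.1 and 40.0 FPKM (3.72 ± 0.11). MYB, needed for definitive but not primitive blood, rose from 1.80 ± 0.180 to 40.0 ± 8.70 FPKM, and GFI1, which represses endothelial genes together with GFI1B, rose to 11.8 ± 0.752 FPKM. The ETS factors FLI1 and ERG differed by 5.93 and 3.38. IKZF2 was the tested member not called, and HLF, HOXA9, HOXA10, RUNX3, KLF2, ETV2 and IRF8 were under the filter.

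Of 43 genes of leukocyte signalling and actin control, 35 were tested, 33 rose and 1 fell, with a median of 2.67, and 23 of the 33 passed the filter through CD43+ cells alone. ARHGDIB, a regulator of small GTPases in blood cells, went from 0.408, 0.625 and 0.584 FPKM to 139.8, 215 and 225 FPKM (6.95 ± 0.18). FERMT3, the kindlin that activates integrins in blood cells, went from 0.810, 0.668 and 0.295 FPKM to 192, 221 and 165 FPKM (6.93 ± 0.16), and GMFG, an actin regulator, from 0.271, 0.0732 and 0 FPKM to 87.6, 119.9 and 108 FPKM (6.57 ± 0.15). Signalling proteins such as VAV1 (5.57), BTK (4.90), LCP2 (4.72) and PTPN6 (3.48) rose as well. The member that fell was CD48, an adhesion receptor, from 8.06 ± 0.715 to 0.723 ± 0.422 FPKM. Receptors for blood cytokines were less uniform: of 22 members 11 were tested, 5 rose and 1 fell, with a median of 0.76. Among those that rose were TNFRSF1B (3.34 ± 0.12), CSF1R (2.51 ± 0.10), CSF2RB (2.35 ± 0.11) and CSF3R. The shared receptor chain IL6ST fell by 1.01, and the erythropoietin receptor EPOR (3.17 ± 0.388 and 4.73 ± 0.588 FPKM) and CXCR4 (6.06 ± 0.978 and 6.67 ± 0.579 FPKM) were not called. FLT3, IL3RA and IL7R were under the filter.

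Endothelial genes were raised in the blood progenitors relative to mesoderm. Of 41 members, 37 were tested, 30 rose and 2 fell, with a median of 2.25, and 22 of the 30 passed the filter through CD43+ cells alone. ICAM2, an adhesion molecule of endothelium and platelets, went from 0.196, 0.188 and 0.168 FPKM to 128.3, 147.8 and 122.6 FPKM (6.82 ± 0.11), and PECAM1, which encodes CD31, from 0.142, 0.00147 and 0.155 FPKM to 82.6, 101 and 104 FPKM (6.46 ± 0.13). PLVAP, of endothelial diaphragms, went from 0.271, 0.00472 and 0 FPKM to 71.7, 93.2 and 80.2 FPKM (6.24 ± 0.15). No APLNR+ library reached 1 FPKM for any of these. The angiopoietin receptor gene TEK and its relative TIE1 rose by 2.20 and 5.90, and CDH5, the adherens junction cadherin of endothelium, by 5.02. KDR, the VEGF receptor already used by mesoderm, was at 46.6, 63.7 and 61.7 FPKM against 89.6, 115 and 126 FPKM, a difference of 0.93 ± 0.16 that stayed under 2-fold but was called without APLNR+ library 2 (1.01) or CD43+ library 1 (1.08). The 2 lowered members were SOX17, a factor of endoderm and arterial endothelium, from 17.5 ± 1.87 to 1.40 ± 0.239 FPKM, and the co-receptor NRP2 (-1.34 ± 0.13), while NRP1 was not called (18.6 ± 1.26 and 18.1 ± 3.03 FPKM).

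**Figure D2:**
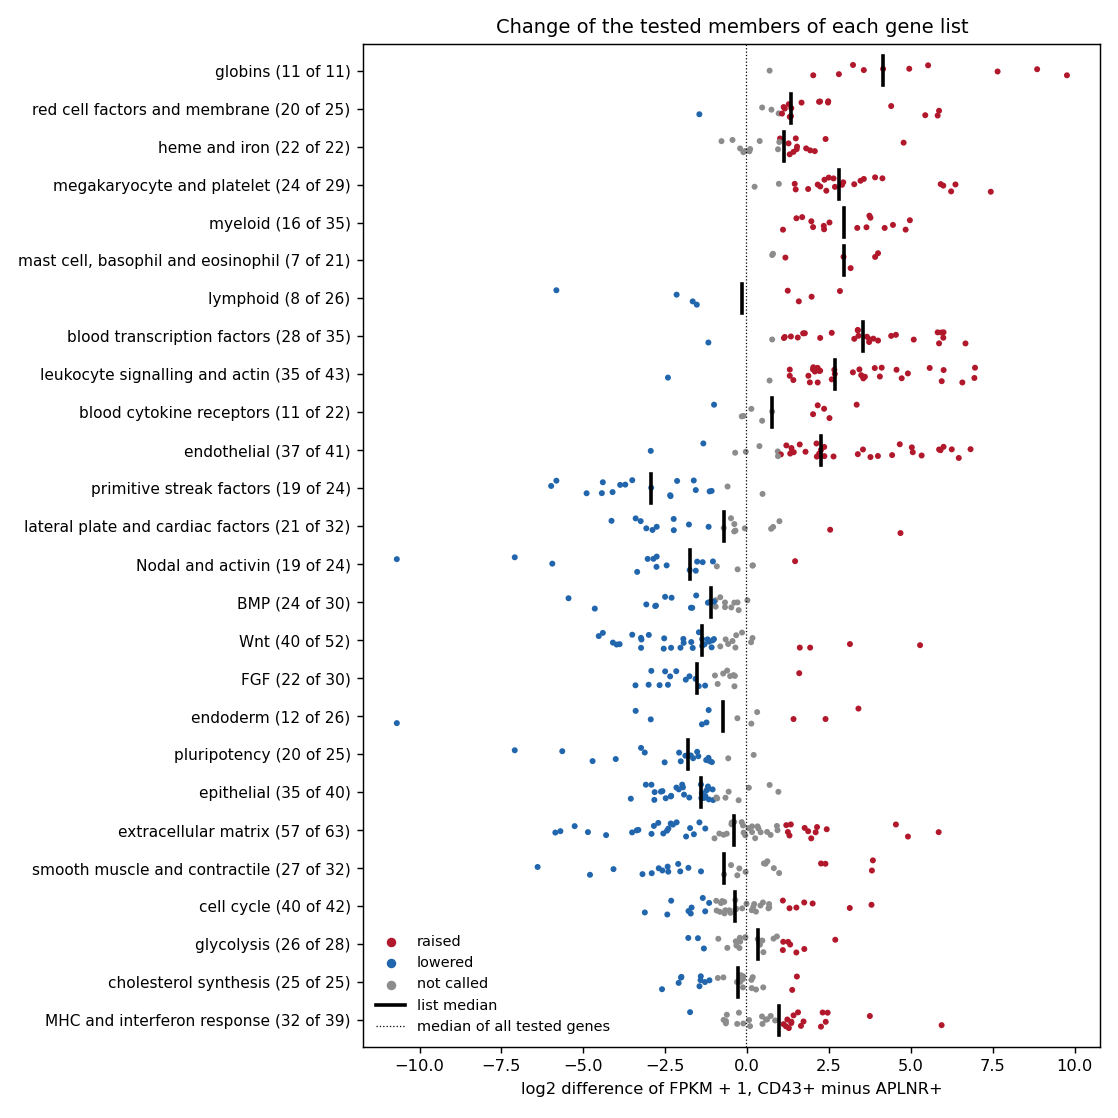
The log2(FPKM + 1) difference, CD43+ minus APLNR+, of every tested member of each of the 26 gene lists, one point per gene. Black bars are list medians and the dotted line is the median of all tested genes (-0.04): lists of blood and endothelial genes lie to the right, with globins at a median of 4.15, and primitive streak factors lie farthest to the left at -2.93.

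One large rise rested on unequal libraries. IMMP1L, which encodes a subunit of a mitochondrial peptidase, was at 10.9, 9.38 and 8.48 FPKM in APLNR+ and at 20.6, 7814 and 25444 FPKM in CD43+ libraries, a difference of 7.27 ± 2.11 (limma, adjusted p = 0.011). CD43+ library 1 lay near the mesoderm and the other libraries far above it, and without CD43+ library 2 the difference was 6.13 and was no longer called. The H1 libraries were as unequal, at 17.98, 11094 and 18782 FPKM.

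Among called protein-coding genes whose populations did not overlap, the largest fall was of CER1. CER1, an inhibitor of Nodal, BMP and Wnt, was at 2167, 2301 and 2245 FPKM in APLNR+ and at 1.09, 0.0894 and 0.0806 FPKM in CD43+ libraries (-10.69 ± 0.23, limma, adjusted p = 2.7e-09). TDGF1, the Nodal co-receptor, went from 185, 178 and 178 FPKM to 0.526, 0.141 and 0.333 FPKM (-7.09 ± 0.13), and CYP26A1, which breaks down retinoic acid, from 125, 134 and 131 FPKM to 0.148, 0.254 and 0.0463 FPKM (-6.84 ± 0.11). Each of these was above 100 FPKM in mesoderm and about 1 FPKM or less in every CD43+ library. GRP, gastrin-releasing peptide, fell from 107, 121 and 116 FPKM to 0.166, 0.127 and 0 FPKM (-6.72 ± 0.12) and the atrial myosin light chain MYL7 from 122, 112 and 89.8 FPKM to 0.514, 0.254 and 0.107 FPKM (-6.40 ± 0.16). The neurotensin gene NTS, whose upstream sequence is given above, fell from 845, 961 and 998 FPKM to 17.2, 15.5 and 20.3 FPKM (-5.65 ± 0.13). C1orf61 fell by 5.93 and the elastic fiber protein MFAP4 by 5.86.

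Genes listed at 0 in all CD43+ libraries include estimates that may have failed. RPPH1, the RNA of ribonuclease P, was at 88029, 85868 and 60287 FPKM in APLNR+ libraries and is listed at 0 in all CD43+ libraries. PARP2, a DNA repair enzyme, was at 5.93, 7.91 and 8.29 FPKM and is likewise listed at 0, and AL355075.4 was at 9212, 3489.8 and 2562 FPKM. These genes overlap one another or lie side by side on one chromosome in GENCODE and are used by all cells in the case of RPPH1, so no fold is given. RMRP, another RNA used by all cells and chosen here after its values were seen, was at 92577, 119567 and 102430.0 FPKM in APLNR+ and at 205833, 0 and 0 FPKM in CD43+ libraries, which overlapped although it was called lowered. GSC, the goosecoid factor of the organizer, was at 23.3, 20.1 and 18.9 FPKM and AC131094.1 at 6.98, 7.71 and 7.51 FPKM, both then listed at 0. In the other direction, AC068587.4 was listed at 0 in APLNR+ and at 16.9, 56.1 and 36.4 FPKM in CD43+ libraries, and CETP, a plasma lipid transfer protein, at 8.24, 9.40 and 8.802 FPKM. In all, 28 tested genes were at 0 in every APLNR+ library and 40 in every CD43+ library.

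Of 24 primitive streak factors, 19 were tested, 17 fell and 0 rose, with a median of -2.93, and 12 of the 17 were below 1 FPKM in every CD43+ library and passed the filter through APLNR+ cells alone. MIXL1, an early streak homeobox gene, was at 48.1, 83.4 and 82.3 FPKM in APLNR+ and 0.112, 0.209 and 0.0127 FPKM in CD43+ libraries (-5.98 ± 0.21), and EOMES, the T-box factor of mesendoderm, was at 51.5, 58.7 and 59.1 FPKM and then 0.0365, 0 and 0 FPKM (-5.82 ± 0.11). OTX2 fell by 4.90 and MESP1, a factor of the earliest cardiovascular mesoderm, by 4.11. The brachyury gene T was low in the APLNR+ cells, at 4.44 ± 0.857 FPKM, and fell to 0.224 ± 0.0408 FPKM. CDX1 and FOXC1 were not called, and CDX2, CDX4, FOXC2, MSGN1 and FOXB1 were under the filter.

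Lateral plate and cardiac factors were mixed. Of 32 members, 21 were tested, 2 rose and 10 fell, with a median of -0.72 (-1.20 after rescaling). The shares were 9.52% raised and 47.6% lowered, against 15.4% and 21.1% of all tested genes. HAND1 was at 36.6, 48.9 and 49.1 FPKM and then 1.24, 1.65 and 1.88 FPKM (-4.14 ± 0.15), GATA6 fell by 3.40 and the BMP-responsive homeobox gene MSX2 by 3.08. GATA4 fell from 15.3 ± 1.65 to 2.44 ± 0.380 FPKM. MEF2C, which acts in heart and in megakaryocytes, rose from 0.234, 0.594 and 0.315 FPKM to 26.0, 37.5 and 40.9 FPKM (4.68 ± 0.18), and MEIS2 rose by 2.53. TBX20 was at 2.15 ± 0.185 and 2.01 ± 0.434 FPKM and TWIST1 at 1.93 ± 0.385 and 1.08 ± 0.276 FPKM, and neither was called. FOXD1, a factor that the study discusses, was below the filter.

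The Nodal and activin pathway fell at the level of ligands, co-receptor, receptors and inhibitors. Of 24 members, 19 were tested, 14 fell and 1 rose, with a median of -1.76 (-2.80 after rescaling). The ligand NODAL fell from 6.43 ± 0.411 to 0.0220 ± 0.0275 FPKM and the receptors ACVR2A and ACVR2B by 2.46 and 1.36. The feedback inhibitors LEFTY1 and LEFTY2 fell by 3.36 and 3.04, SMAD7 by 2.77, and FST, the activin-binding follistatin, from 65.6, 68.1 and 68.0 FPKM to 0.181, 0.0520 and 0.0840 FPKM (-5.95 ± 0.11). Of the signal transducers, SMAD3 fell by 1.05, whereas SMAD2 (57.7 ± 5.49 and 30.2 ± 6.07 FPKM) and SMAD4 were not called, though SMAD2 was called without APLNR+ library 1 (-1.01) or CD43+ library 3 (-1.07). GDF15, a stress-induced ligand of the same superfamily, rose by 1.46.

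BMP genes fell in 14 of 24 tested cases out of 30 members and 0 rose, with a median of -1.12. The ligand BMP2 was at 70.2, 71.5 and 72.1 FPKM and then 0.698, 0.544 and 0.710 FPKM (-5.45 ± 0.11), and BMP4, which had also been added to the medium of the first 2 days, was at 94.3, 96.8 and 89.8 FPKM and then 2.61, 2.80 and 2.88 FPKM (-4.65 ± 0.10). BMPR1A and BMPR2, receptors, fell by 2.51 and 1.72, and the antagonists NOG and BMPER by 2.81 and 2.78. Target genes varied: MSX2 fell by 3.08 and ID1 from 257 ± 30.7 to 112 ± 11.7 FPKM, while ID3 and SMAD6 (67.1 ± 3.96 and 41.8 ± 6.00 FPKM) were not called.

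Wnt genes fell in 27 and rose in 4 of 40 tested cases out of 52 members, with a median of -1.37. Among ligands, WNT5A went from 57.7, 48.3 and 47.3 FPKM to 1.45, 1.23 and 1.06 FPKM (-4.53 ± 0.13), whereas WNT11 rose from 0.517 ± 0.108 to 12.4 ± 1.23 FPKM and WNT5B from 13.04 ± 0.322 to 52.4 ± 5.48 FPKM, so ligands of the same noncanonical class moved apart. The receptors FZD7, ROR2 and LGR5 fell by 3.51, 3.98 and 4.10, and WLS, needed for secretion of Wnt proteins, by 3.00. Inhibitors also split: DKK1 fell from 63.5, 66.1 and 66.5 FPKM to 1.80, 2.06 and 2.58 FPKM (-4.41 ± 0.12), and SFRP5 rose from 0.0662, 0.0368 and 0.0229 FPKM to 40.7, 42.1 and 35.6 FPKM (5.28 ± 0.12). The target AXIN2 fell by 2.04, and CTNNB1 (179 ± 20.3 and 141 ± 13.75 FPKM) and LEF1 were not called.

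FGF genes fell in 13 and rose in 1 of 22 tested cases out of 30 members, with a median of -1.53. The ligand FGF8 fell from 10.9 ± 1.56 to 0.114 ± 0.0300 FPKM, the intracellular FGF13 by 3.01 and the receptors FGFR1, FGFR2 and FGFR4 by 1.58, 2.67 and 2.35. The feedback inhibitors IL17RD and SPRY4 fell by 2.93 and 2.504, while SPRY1, of the same Sprouty family, rose by 1.59. DUSP6, a phosphatase induced by the pathway, was at 29.7 ± 1.98 and 22.4 ± 2.03 FPKM and was not called.

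Pluripotency genes that passed the filter were still present in APLNR+ cells and mostly fell further. SOX2 had already gone from 43.0 FPKM in H1 to 0.269 FPKM in APLNR+ cells on average and was under the filter. NANOG averaged 48.6 FPKM in H1, 9.32 FPKM in APLNR+ and 1.44 FPKM in CD43+ cells. Of 25 members, 20 were tested, 18 fell and 0 rose, with a median of -1.80. POU5F1 (OCT4) averaged 1002 FPKM in H1, stood at 338, 377 and 346 FPKM in APLNR+ and at 11.4, 13.6 and 12.4 FPKM in CD43+ libraries (-4.72 ± 0.11), and the RNA-binding protein gene L1TD1 fell by 5.65. LIN28A, which blocks let-7 processing, was at 178 ± 16.2 and 119 ± 9.61 FPKM and was not called, whereas LIN28B fell by 1.65. Endoderm genes were tested in 12 of 26 cases, and 3 rose and 6 fell, with a median of -0.74. HHEX, which acts in endoderm and in blood and endothelial precursors, rose from 0.797 ± 0.185 to 17.98 ± 2.83 FPKM (3.40 ± 0.15), and TTR and APOA2 rose by 2.39 and 1.41. APOE was at 285 ± 42.4 and 231 ± 33.6 FPKM and was not called.

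Epithelial genes fell in 27 of 35 tested cases out of 40 members and 0 rose, with a median of -1.40. CXADR, a junctional receptor, fell from 17.02, 21.98 and 24.3 FPKM to 0.736, 0.895 and 0.973 FPKM (-3.55 ± 0.15), the protease PRSS8 by 3.09 and the keratin KRT8 from 469.5, 492 and 424 FPKM to 51.4, 71.1 and 58.9 FPKM (-2.92 ± 0.14). CDH1, the E-cadherin gene, was at 12.4 ± 0.376 and 1.68 ± 0.237 FPKM. The repressors of epithelial genes did not move in one direction: SNAI1 and SNAI2 fell by 2.34 and 2.35, and ZEB2 rose from 9.75, 13.3 and 12.02 FPKM to 48.8, 55.8 and 55.5 FPKM (2.11 ± 0.13). OVOL2, an epithelial factor, was at 1.24 ± 0.0277 and 0.186 ± 0.0727 FPKM and was not called at 2-fold.

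Extracellular matrix genes exchanged members. Of 63 genes, 57 were tested, 13 rose and 22 fell, with a median of -0.40 (-0.71 after rescaling). The matrix shares were 22.8% raised and 38.6% lowered, against 15.4% and 21.1% of all tested genes. TIMP3, an inhibitor of matrix proteases, rose from 3.88, 4.83 and 4.40 FPKM to 261, 327 and 339 FPKM (5.84 ± 0.13), and the fibrillar collagens COL3A1 and COL2A1 by 4.91 and 4.54. COL5A2, a collagen that assembles with fibrillar collagen, fell from 312, 292 and 268 FPKM to 8.02, 8.40 and 10.8 FPKM (-4.86 ± 0.13), the adhesion-modulating TNC by 5.27 and HAS2, which makes hyaluronan, from 121, 152 and 155 FPKM to 1.75, 1.49 and 2.01 FPKM (-5.70 ± 0.13). FN1 was at 146 ± 4.61 and 105 ± 7.47 FPKM and the collagen chaperone SERPINH1 at 266 ± 10.8 and 244 ± 20.8 FPKM, and neither was called. Contractile genes were tested in 27 of 32 cases, of which 4 rose and 13 fell, with a median of -0.71. These shares were 14.8% raised and 48.1% lowered, against 15.4% and 21.1% of all tested genes. TAGLN, an actin-binding protein of smooth muscle, fell from 538, 459 and 399 FPKM to 16.2, 16.9 and 13.9 FPKM (-4.80 ± 0.14) and the cardiac actin ACTC1 by 4.08. The embryonic myosin light chain MYL4 rose from 17.9, 17.8 and 17.8 FPKM to 256, 292 and 256 FPKM (3.84 ± 0.10) and the smooth muscle actin ACTA2 by 3.81. These named genes of both muscle types moved in both directions, while the list as a whole leaned to lowered genes.

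Cell cycle genes were tested in 40 of 42 cases, and 7 rose and 9 fell, with a median of -0.36. These shares, 17.5% raised and 22.5% lowered, are near the 15.4% and 21.1% of all tested genes. After rescaling without small RNA genes 6 rose and 16 fell, with a median of -0.69. CENPF, a kinetochore protein, went from 31.4, 38.8 and 42.3 FPKM to 2.72, 3.61 and 3.90 FPKM (-3.12 ± 0.15), and CDK1 and TOP2A fell by 2.44 and 2.32. The cyclin CCND3 rose from 11.97 ± 0.484 to 113 ± 7.90 FPKM (3.13 ± 0.10), and the inhibitors CDKN1C and CDKN1A rose by 3.79 and 2.00. The replication factors MCM7 and PCNA were not called.

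Metabolic lists moved less. Glycolysis genes were tested in 26 of 28 cases, with 7 raised, 3 lowered and a median of 0.34, which became 4 raised, 4 lowered and 0.04 after rescaling. As deposited the shares were 26.9% raised and 11.5% lowered, against 15.4% and 21.1% of all tested genes. The lactate exporter SLC16A3 rose from 11.96 ± 1.84 to 82.7 ± 12.9 FPKM and the regulatory enzyme PFKFB4 by 1.74, while the glucose transporter SLC2A3 fell from 365 ± 20.1 to 104 ± 2.53 FPKM. Cholesterol synthesis genes numbered 25, all tested, with 2 raised, 9 lowered and a median of -0.27 (2 raised, 11 lowered and -0.58 after rescaling). Their shares as deposited were 8.0% raised and 36.0% lowered. IDI1 and HMGCS1 fell by 2.09 and 2.02, and FDPS was not called. The interferon response and antigen presentation list held 39 genes, of which 32 were tested, 16 rose and 1 fell, with a median of 0.98 (14 raised, 4 lowered and 0.93 after rescaling). ISG15, a ubiquitin-like protein induced by interferon, was at 17.5, 13.2 and 10.9 FPKM and then 1057, 966 and 698 FPKM (5.93 ± 0.20), IFI6 rose by 3.74 and HLA-E by 2.45, whereas HLA-B (12.6 ± 2.35 and 12.5 ± 10.03 FPKM) was not called. IFI30, a lysosomal reductase of antigen processing, fell by 1.74. Among the most abundant protein-coding genes, the ribosomal RPS18 and RPS19 differed by 1.01 and 1.16, just past 2-fold, with RPS18 at 0.97 to 0.99 and no longer called without APLNR+ library 1, APLNR+ library 3 or CD43+ library 2, and RPS27, RPL37A, RPS23 and TMSB10 were not called.

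The called genes were also set beside the CD31+CD34+ cells of day 5, another sorted population, so a place on the scale does not date a change. Each gene's mean in CD31+CD34+ libraries was placed on a scale from 0 (the APLNR+ mean) to 1 (the CD43+ mean) in log2(FPKM + 1), with near taken as within 0.25 of an end. This is a description, since the ends were chosen by the call. Of raised genes, 17.5% were still near APLNR+, 38.8% between, 31.2% near CD43+ and 11.2% beyond CD43+, and 26 genes lay on the opposite side. Of lowered genes, 10.7% were near APLNR+, 31.9% between, 41.9% near CD43+, 12.3% beyond and 3.22% on the opposite side.

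The gene lists are given by their counts at day 5. All 10 raised globin genes were still near APLNR+: HBG2 averaged 3.76 FPKM and HBE1 1.04 FPKM in CD31+CD34+ cells. Of the raised megakaryocyte genes 13 of 22 were also near APLNR+, among them PLEK at 0.0617 FPKM and ITGB3 at 0.674 FPKM, and of the raised myeloid genes 11 of 16. Of the raised endothelial genes 13 of 30 were near CD43+ and 14 beyond it. PLVAP averaged 220.1 FPKM and CDH5 96.8 FPKM at day 5, above their CD43+ levels of 81.7 and 33.9 FPKM. The raised blood factors were spread, with shares near those of all raised genes between the ends: of 26, 3 were near APLNR+, 10 between, 11 near CD43+ and 2 beyond, with TAL1 at 82.9 FPKM but GATA1 at 1.83 FPKM.

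**Figure D3:**
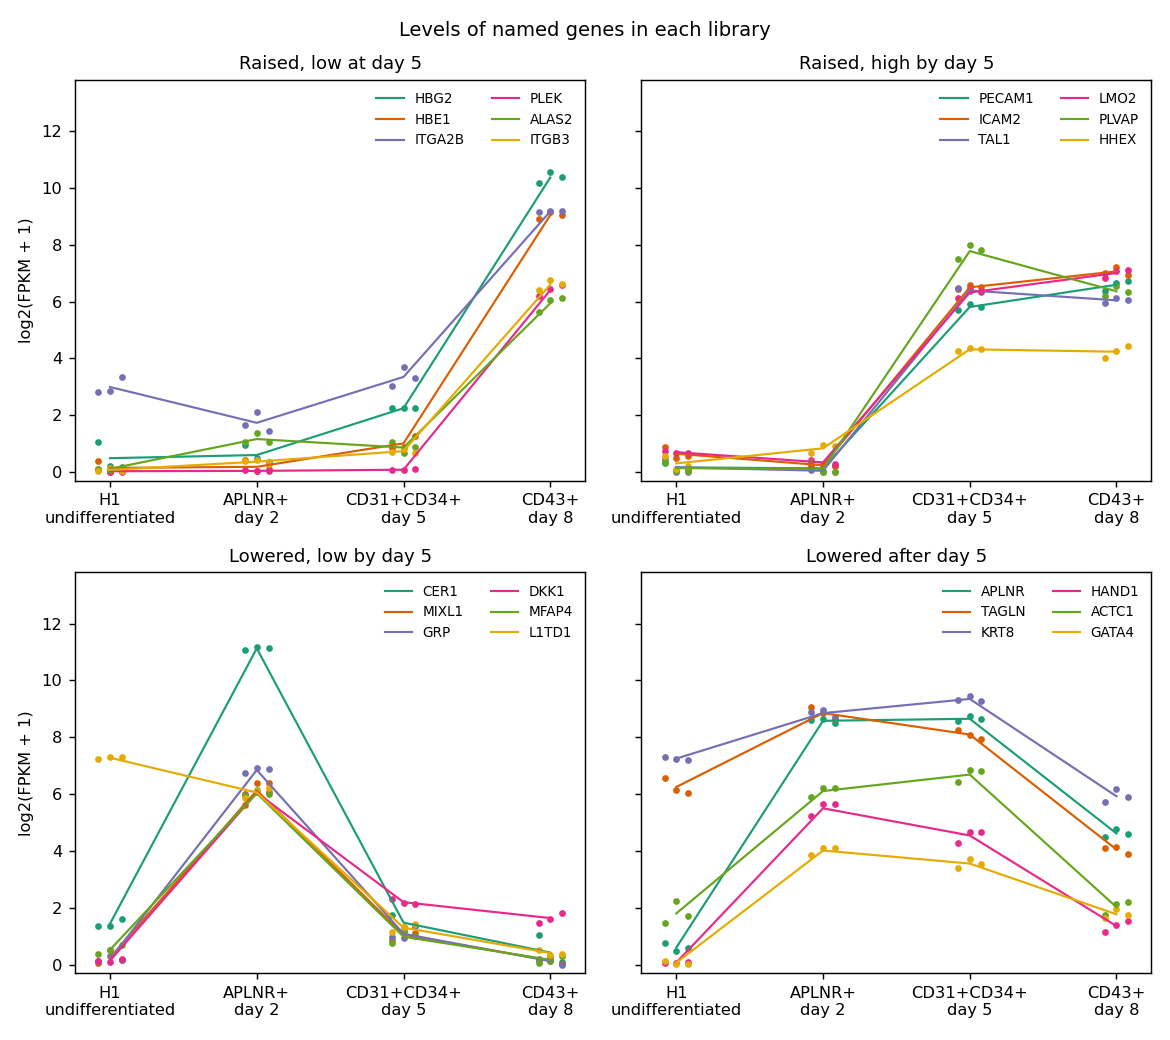
FPKM on a log2(FPKM + 1) axis for 24 genes in all 12 libraries (dots) with lines through the mean of each population of 3 libraries. HBG2, ITGA2B and PLEK are low in CD31+CD34+ cells and high in CD43+ cells, while PECAM1, TAL1 and LMO2 are high in both. CER1 and MIXL1 are low in both, and APLNR and KRT8 are lower in CD43+ than in CD31+CD34+ cells. Days in the panel titles stand for the sorted populations and do not date a change.

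Lowered genes were spread as well. Of 17 lowered streak factors 7 were near CD43+, 8 between and 2 on the opposite side at that day, and MIXL1 averaged 1.10 FPKM. Of 10 lowered lateral plate and cardiac factors 5 were near APLNR+ and 5 between, with HAND1 at 22.6 FPKM and GATA4 at 10.9 FPKM. Lowered matrix genes were near APLNR+ in 10 of 22 cases. Against the level in undifferentiated cells, H1 was more than 2-fold below APLNR+ for 14 of the 17 streak factors, all 10 lateral plate factors and 12 of 14 BMP genes, but above APLNR+ for 12 of 18 lowered pluripotency genes. For 86.9% of raised and 66.5% of lowered genes H1 lay within 2-fold of APLNR+. These comparisons with H1 used means of log2(FPKM + 1), so genes near 0 in both populations count as within 2-fold whatever their ratio. The raised gene TM4SF1 is an example, with a mean of 0.386 FPKM for undifferentiated cells and 0.0361 FPKM for mesoderm. Of the 2084 raised genes, 606 were below 1 FPKM in every APLNR+ library.

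**Figure D4:**
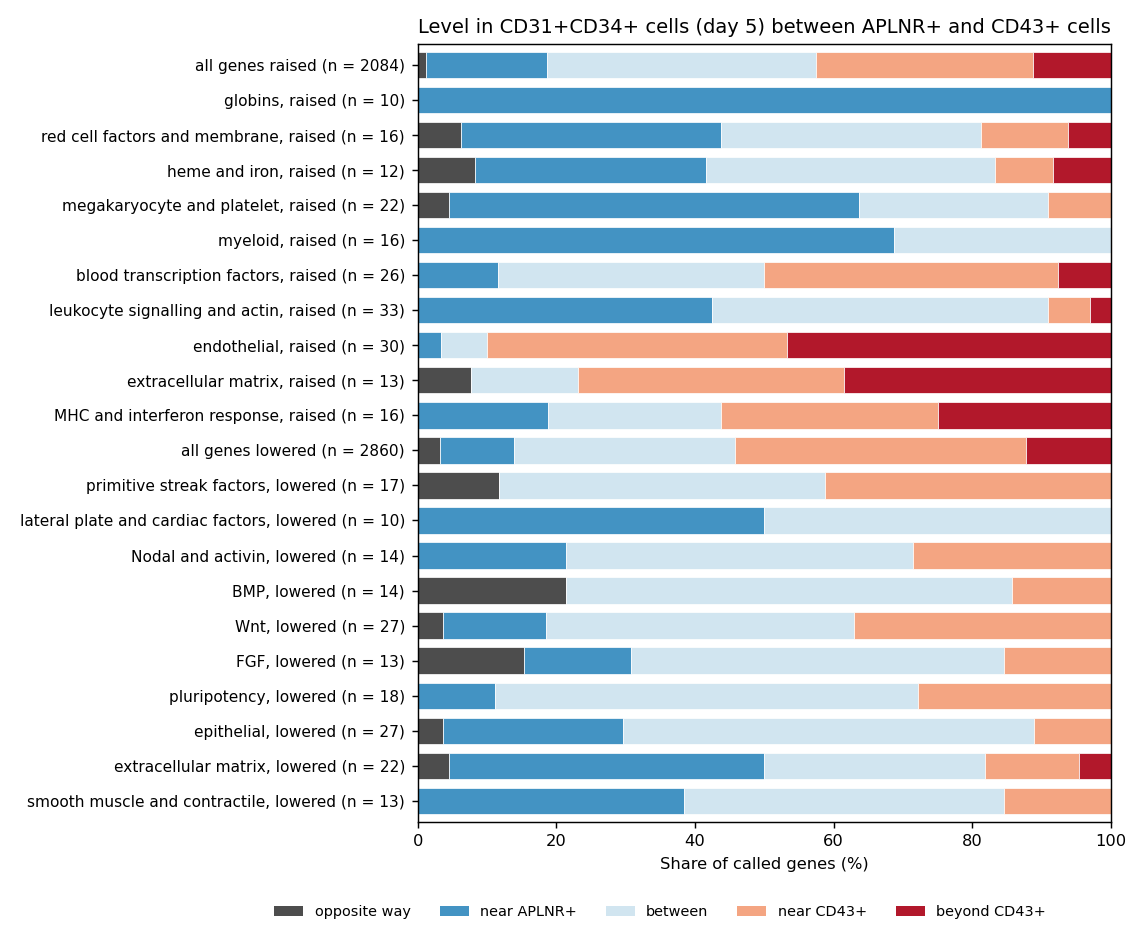
Share (%) of raised and lowered genes, and of the called members of lists with at least 10 of them in a direction, by the place of the CD31+CD34+ mean between APLNR+ and CD43+. All 10 raised globin genes are near APLNR+, while 13 of 30 raised endothelial genes are near CD43+ and 14 are beyond it.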

How the data were processed

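Libraries were made from Trizol-extracted total RNA with an Illumina TruSeq kit. The deposited table holds FPKM made by the authors for 58365 gene entries in 12 libraries; BWA, Bowtie, RSEM and the build hg19 are named in the submitters' processing notes, without roles. Normalization to mapped fragments makes values relative, so an abundant RNA lowers all others, and read depth is unknown. Of a repeated symbol the row with the highest mean was used. APLNR+ and CD43+ libraries (3 each) were compared in limma 3.58.1 (R 4.3.3), with a trended prior variance, on log2(FPKM + 1) of genes at 1 FPKM or more in 3 of 6 libraries, and p-values were adjusted by Benjamini-Hochberg. A call needed adjusted p below 0.05 and a 2-fold difference. Strand is not stated, so antisense genes are uncertain. On simulated data over 13554 genes, 96 of 100 changes of 1.5 (log2) and 100 of 100 changes of 2.5 were called, with 0 of wrong sign. The changed genes were drawn only from those above about 10 FPKM in APLNR+ cells, so recovery of changes in lower genes was not tested.

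The members and the 26 gene lists were chosen with earlier results of these data known, and no list was given a test. Named were SPN and APLNR, the 12 largest rises and falls among called protein-coding genes with no overlap, a higher mean of at least 10 FPKM and not all 0 in a population, the 5 highest genes at 0 in all libraries of either population, the 3 called members of each list that changed most with its most abundant uncalled one, 14 genes the study discusses, and the 5 most abundant genes of each population. A few genes that this rule or the lists hold are not reported here. Other list members are given as examples, chosen after their values were seen. Gene types were taken from GENCODE 29 by symbol and promoters from RefSeq. The list names TBXT, CCN1 and CCN2 stand under T, CYR61 and CTGF. Figures were drawn in matplotlib 3.10.9, and tables were made in Python 3.11.15 with scipy 1.17.1, pandas 2.3.3 and numpy 2.4.6. Other pseudocounts, filters, scalings, fold limits and fits, and the omission of each library, were tried.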

Additional observations from a re-analysis of the deposited data

How the results depend on the processing

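No gene was called in the opposite direction under any setting, and the calls of SPN and APLNR held throughout: leaving out each library gave 5.86 to 6.15 for SPN and -4.03 to -3.90 for APLNR. The 2084 raised and 2860 lowered genes became 1956 to 2187 and 2759 to 3036 when a library was left out, with 40.6% to 44.2% raised among those called (42.2% with all; 44.2% without CD43+ library 1 and 40.6% without CD43+ library 2) and medians over all genes of -0.07 to 0.0033. A test against a 1.2-fold difference gave 3810 raised and 4428 lowered (46.2% raised), no minimum fold 4860 and 5374 (47.5%), and a 4-fold limit 587 and 719 (44.9%). A mean of at least 5 FPKM left fewer genes to call, with 1393 raised, 1700 lowered (45.0%) and a median of 0.06. Upper-quartile scaling gave 1880 and 3098 (37.8%, median -0.12), quantile scaling 2221 and 2499 (47.1%, median 0.04) and rescaling without small RNA genes 1671 and 4122 (28.8%, median -0.33). With a pseudocount of 0.1 the counts were 2557 and 3492. Medians of 2 lists changed sign: lymphoid genes from -0.15 to 0.77 with a pseudocount of 0.1 and to 0.01 with no filter, and endoderm genes from -0.74 to 0.07 with no filter, which lets in low genes. Without library 1 of either population the counts were 2220 and 2931.

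With a replicate block they were 2092 and 2863. Deviations of libraries with the same number correlated at 0.33, 0.09 and 0.28, not all above 0.1, so no pairing was taken, although each CD43+ library correlated best with its own number and a pairing is not excluded. Among named genes, IMMP1L, RPS18 and RPS19 lost their call in some settings, and AHSP, TSPAN33, LTBP1, KDR, SMAD2, OVOL2 and TMSB10 gained one in some. KDR was called at 1.01 without APLNR+ library 2 and at 1.08 without CD43+ library 1. Settings added after seeing the data, leaving out genes with a 0 beside a high value (2087 and 2858) or small RNA genes (2073 and 2854), changed little. Only FPKM were given, so counting error could not be computed.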
